A study of Mus musculus with 4 samples.

Results

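The genes Fadd, Casp8, Cflar, Ripk1, Ripk3, Mlkl and Ripk2, which encode the core of death receptor and necroptosis signalling and a related kinase, were followed in mouse bone marrow-derived macrophages. They were chosen by name, as the entries whose gene ID carries one of these symbols in the mouse GENCODE annotation. All 7 were found among the 52550 gene entries of each library, and all 7 passed the filter on low counts. Polyadenylated RNA was sequenced from macrophages of C57BL/6 mice aged 8 to 10 weeks, either wild type or deficient in the microRNA miR-7. The wild-type unstimulated and miR-7 deficient unstimulated cells received no LPS, and the wild-type LPS and miR-7 deficient LPS cells received 100 ng/mL for 12 hours. LPS, a lipid of bacterial outer membranes, is sensed by the receptor TLR4. Each of the 4 groups held 1 library, so no difference between 2 libraries has a replicate check. The sources used here do not say how the deficiency was made or how many mice gave each library. Mature miR-7 is not measured by these gene counts, so its loss was not checked.

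Death receptors such as the TNF receptor, once bound by their ligand, assemble a complex in which the adaptor FADD recruits the protease caspase-8. Caspase-8 starts apoptosis unless it is held by cFLIP, the inactive caspase-8 relative encoded by Cflar, and the caspase-8 and cFLIP pair also cuts RIPK1 and RIPK3. When caspase-8 is blocked, RIPK1 and RIPK3 bind each other, and RIPK3 phosphorylates MLKL, which opens the plasma membrane in a lytic death called necroptosis. RIPK2 shares the kinase domain of this family but carries signals from the bacterial sensors NOD1 and NOD2 to NF-kB. Macrophages are known to hold both death pathways in check while Toll-like receptors signal.

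Libraries held 33937823 to 42074624 counts, and 3 counts, the limit that a count of 0 allows, were worth 0.0713 to 0.0884 CPM, the count scaled to library size. The 8 macrophage markers summed to 12511 to 22874 CPM, and no other marker list summed to more than 255 CPM. That highest sum, of 5 endothelial genes, came mainly from Kdr and was 35.2 to 42.7 CPM without LPS and 172 to 255 CPM with it. The sum of 5 NK cell genes, mainly Klrk1, was 1.17 to 1.56 CPM without LPS and 19.4 to 20.5 with it. The sum of 5 dendritic cell genes, mainly Clec9a, was 24.3 to 32.9 CPM without LPS and 9.05 to 11 with it, and that of 6 B cell genes, mainly Ighm, 6.71 to 10.1 and 0.121 to 0.454. These sums moved with the LPS groups, and their part in the results was not tested. Other members of the marker lists, Cd3d, Trac, Ncr1, Gzma, Ly6g, Elane, Flt3 and Emcn, had 0 counts in every library. Xist had 24 and 16 counts in the wild-type libraries and 28015 and 25701 in the deficient ones, whereas Ddx3y had 2013 and 1537 against 9 and 12, so genotype and the sex of the mice cannot be told apart. In 8 LPS-induced genes that are near silent without LPS, the wild-type unstimulated count was 1.17 to 1.86% of the wild-type LPS count, against 0.0428 to 0.254% in the deficient pair. Values with the wild-type median share, 1.70%, removed are given for part of the results. In these bulk samples, fewer cells of a type and less RNA per cell cannot be told apart.

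MicroRNA miR-7 pairs with messenger RNAs mainly through its seed, bases 2 to 8 of the mature strand. Both mature forms in RefSeq (GRCm38.p6) are shown, 5′ to 3′, with the seed in capitals, because the seed defines the sites searched for. They share the seed.
mmu-miR-7a-5p: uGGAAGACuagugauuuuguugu
mmu-miR-7b-5p: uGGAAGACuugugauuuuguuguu
The longest annotated 3′ untranslated region (UTR) of each gene was searched on its own strand for GTCTTCC, the complement of the whole seed, and for TCTTCCA, the complement of bases 2 to 7 followed by A. Of the 7 genes, 4 held a site. Of 21024 genes with protein-coding transcripts, each taken by its longest 3′ UTR (median length 960 bases), 23.2% did. Each site is shown on the gene's strand with 25 bases of sequence, the match in capitals, from GENCODE M21 on GRCm38.
Ripk1 site, chr13:34036878-34036902, plus strand: ttgaacagttTCTTCCAgttctttc
Mlkl site, chr8:111311833-111311857, minus strand: ctcaaggaaaTCTTCCAgttctgcc
Cflar first site, chr1:58755628-58755652, plus strand: ggaagccgcaTCTTCCAgacagaac
Cflar second site, chr1:58757181-58757205, plus strand: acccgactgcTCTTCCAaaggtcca
Fadd site, chr7:144577360-144577384, minus strand: cctgttctctGTCTTCCtaggtagt
The 2 Cflar sites lie at bases 1716 and 3269 of a UTR of 4962 bases. The Ripk1 site lies at base 4106 of 4365, the Mlkl site at base 178 of 228 and the Fadd site at base 3155 of 3211. The UTRs of Ripk2 (821 bases), Ripk3 (202 bases) and Casp8 (749 bases) held neither sequence. A match is a description of these letters and no evidence that miR-7 binds there. The genotype values of the genes with and without a site are given with the genotype comparison.

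The comparison of LPS with no stimulation asked how the macrophages' death machinery differed after 12 hours of LPS. Levels are CPM after TMM scaling, which corrects for differences in library composition, and 4 values follow the order wild-type unstimulated, wild-type LPS, deficient unstimulated, deficient LPS. Fitted log2 changes carry a standard error (SE) and come from edgeR's quasi-likelihood test in an additive model of genotype and LPS over all 4 libraries, in which the pairs of the other factor stand in for replicates. Its p-values, adjusted by Benjamini-Hochberg over 12730 genes and called below 0.05, rest on 1 residual degree of freedom and on spread shared across genes. Ratios between 2 libraries carry 95% intervals for counting error only and no test. With LPS, 4 of the 7 genes rose, namely Cflar, Mlkl, Ripk2 and Casp8, and 1 fell, Ripk1, while Fadd and Ripk3 did not pass. Of all genes tested, 18.0% rose and 16.3% fell. The median fitted change was 1.32 over the 7 genes and -0.04 over all genes tested, on the log2 scale.

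**Figure D1:**
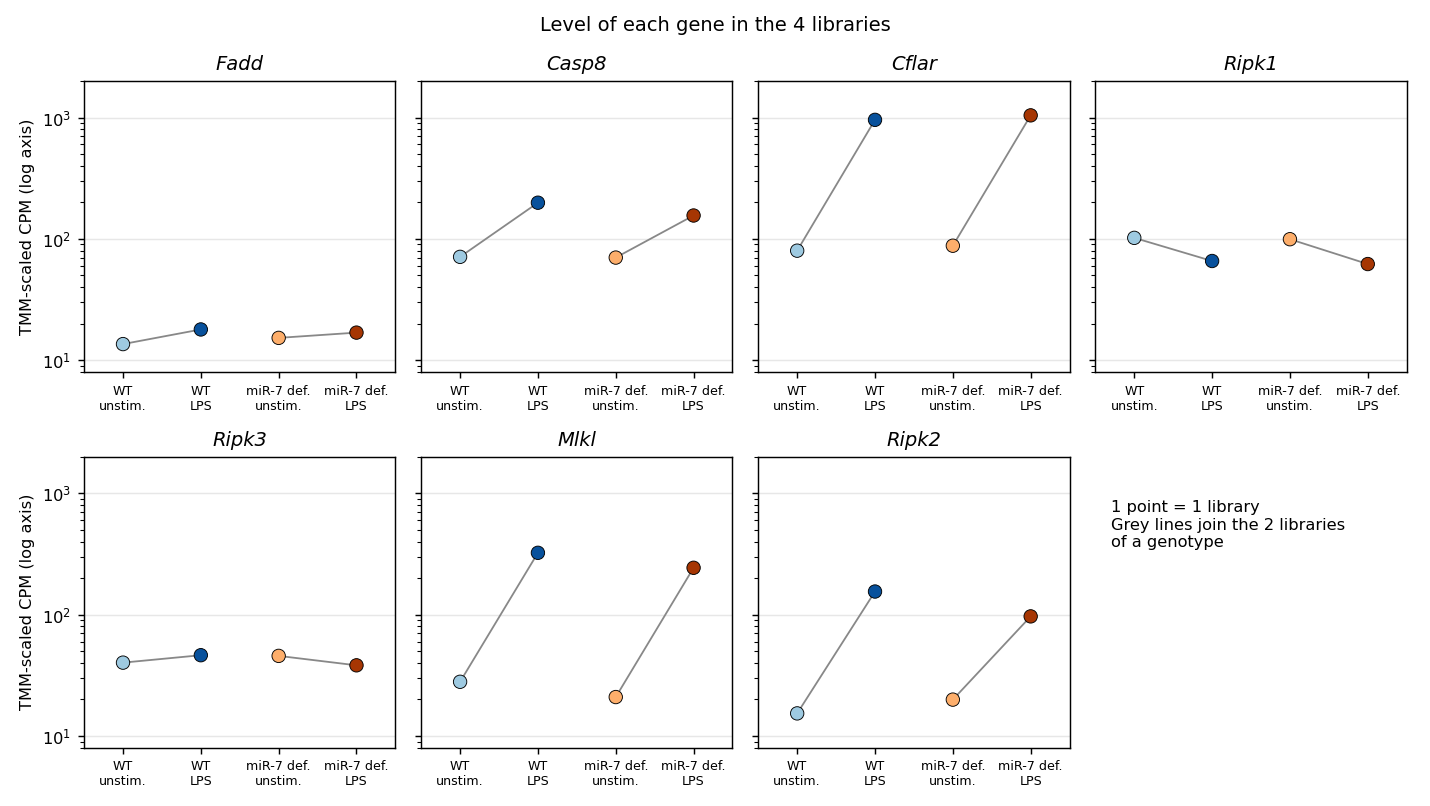
TMM-scaled CPM (vertical log axis) of each gene in the 4 libraries, 1 point for each library, with grey lines joining the libraries of a genotype. Cflar, Mlkl, Ripk2 and Casp8 are higher in both LPS libraries (Cflar 958 and 1043 CPM against 80.0 and 87.9), Ripk1 is lower in both, and Fadd and Ripk3 stay within 13.6 to 17.9 and 38.2 to 46.3 CPM.

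Fadd (ENSMUSG00000031077.7, chr7:144577318-144582463, minus strand, GRCm38) encodes the adaptor that joins death receptors to caspase-8. Its level was 13.6, 17.9, 15.3 and 16.9 CPM. Both LPS libraries were above both unstimulated ones, by a margin that was small in the deficient pair. The fitted change was 0.27 ± 0.22 (SE; adjusted p = 0.386), so Fadd did not pass the test. The wild-type log2 ratio of 0.40 (0.24 to 0.56) became -0.04 (-0.20 to 0.12) with total counts as library sizes. The deficient ratio of 0.14 (-0.02 to 0.31) became -0.23 (-0.40 to -0.07) with the same scaling. That scaling moved the median LPS ratio over all genes by -0.44 in the wild-type pair and by -0.38 in the deficient pair. Fadd shares exonic bases with an antisense gene, Faddos, and the strand setting of the counting is not stated, so its counts are uncertain.

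Casp8 (ENSMUSG00000026029.14, chr1:58795374-58847503, plus strand) encodes the protease that starts apoptosis and restrains necroptosis. It measured 71.2, 199, 70.2 and 156 CPM. The 2 unstimulated libraries were alike and both LPS libraries were well above them, the wild-type one higher. Casp8 rose by 1.32 ± 0.19 on the log2 scale, 2.49-fold (adjusted p = 0.00358).

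Cflar (ENSMUSG00000026031.15, chr1:58711508-58758884, plus strand) encodes cFLIP, the inhibitor that holds caspase-8. It measured 80.0, 958, 87.9 and 1043 CPM, and the LPS libraries stood far from the unstimulated ones in both genotypes. Cflar rose by 3.58 ± 0.21, 11.9-fold (adjusted p = 0.000198), the largest fitted change of the 7 genes. Cflar and Casp8 lie near each other on the same strand, 36.5 kb apart. Between the start of Cflar and the start of Casp8, 1 other annotated gene, Gm3841, starts. The fitted change of the inhibitor was the larger of the pair, a difference that was not tested.

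The promoter of Cflar is shown because it belongs to the gene with the largest change. It runs from 250 bases before to 50 after the RefSeq start (GRCm38.p6), 5′ to 3′, with the motif match in capitals.
Cflar promoter, chr1:58711241-58711540, plus strand: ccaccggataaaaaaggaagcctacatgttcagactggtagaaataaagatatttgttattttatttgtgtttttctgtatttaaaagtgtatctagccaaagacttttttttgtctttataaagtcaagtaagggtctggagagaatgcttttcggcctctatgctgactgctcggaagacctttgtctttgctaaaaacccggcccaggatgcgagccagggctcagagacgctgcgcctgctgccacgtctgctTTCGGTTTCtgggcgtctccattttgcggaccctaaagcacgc
Promoter windows of this length were found for 6 of the 7 genes, all but Ripk2, and both strands were searched for the NF-kB consensus, for the interferon response core GAAANNGAA and for the STAT site TTCNNNGAA. Of 32851 RefSeq windows, 4.51% held the NF-kB consensus, 8.56% the interferon core and 8.30% the STAT site. The Cflar window held 1 match, an interferon core on the minus strand, printed above on the plus strand. The Ripk3 window also held 1 interferon core, and the windows of Mlkl, Fadd and Casp8 held none of the 3 motifs. The Casp8 window, chr1:58802252-58802551, lies inside the gene as GENCODE places it, so the region at its GENCODE start was not searched. None of the searched windows of these genes held the NF-kB consensus. These counts say only which letters lie in the windows.

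Ripk1 (ENSMUSG00000021408.15, chr13:34002363-34037147, plus strand) encodes the kinase and scaffold that passes the death receptor signal to NF-kB, to caspase-8 or to RIPK3. It measured 102, 65.8, 99.5 and 62.1 CPM, and both LPS libraries lay below both unstimulated ones by a like amount. Ripk1 fell by 0.66 ± 0.18, a 1.58-fold lower level (adjusted p = 0.0337). That call ended with no filter on low counts (adjusted p = 0.0661) and when any 1 library was left out of a model of LPS alone (adjusted p = 0.0588 without the wild-type LPS, 0.0627 without the deficient LPS, 0.109 without the deficient unstimulated and 0.155 without the wild-type unstimulated library). Ripk1 shares exonic bases with Gm17084 on its own strand and with Serpinb6a on the other, so part of its count may belong to them.

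RefSeq gives Ripk1 2 promoter windows, and the second is shown because it holds the most motif matches of the windows searched.
Ripk1 second promoter, chr13:34002624-34002923, plus strand: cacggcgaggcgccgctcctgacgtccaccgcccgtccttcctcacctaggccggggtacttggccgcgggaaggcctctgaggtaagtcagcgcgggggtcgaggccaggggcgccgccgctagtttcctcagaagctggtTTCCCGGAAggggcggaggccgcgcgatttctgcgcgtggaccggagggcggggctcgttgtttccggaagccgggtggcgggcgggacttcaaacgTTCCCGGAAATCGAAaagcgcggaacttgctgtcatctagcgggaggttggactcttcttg
The capitals mark 2 STAT sites, the second of which overlaps an interferon core. The first Ripk1 window held no match.

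Ripk3 (ENSMUSG00000022221.13, chr14:55784995-55788865, minus strand) encodes the kinase that activates MLKL. It measured 40.2, 46.3, 45.7 and 38.2 CPM, and the 2 LPS libraries held both the highest and the lowest value. The fitted change was -0.03 ± 0.22 (adjusted p = 0.935) and did not pass.

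Mlkl (ENSMUSG00000012519.14, chr8:111311797-111338177, minus strand) encodes the pseudokinase that breaks the plasma membrane in necroptosis. It measured 28.0, 323, 20.9 and 243 CPM, and both LPS libraries stood far above the unstimulated ones, with the deficient library the lower at each condition. Mlkl rose by 3.53 ± 0.20, 11.6-fold (adjusted p = 0.000178). Its kinase Ripk3 did not pass the test in the same libraries.

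The Mlkl promoter is shown beside that of Cflar, since Mlkl rose about as much as Cflar and this window holds none of the 3 motifs.
Mlkl promoter, chr8:111338156-111338455, minus strand: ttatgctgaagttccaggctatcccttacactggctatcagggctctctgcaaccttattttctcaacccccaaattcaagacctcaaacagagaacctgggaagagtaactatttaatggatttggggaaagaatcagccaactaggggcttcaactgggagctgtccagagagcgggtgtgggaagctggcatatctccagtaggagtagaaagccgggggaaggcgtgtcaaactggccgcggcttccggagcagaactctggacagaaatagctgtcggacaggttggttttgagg

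Ripk2 (ENSMUSG00000041135.15, chr4:16122733-16163647, minus strand) encodes the kinase that relays NOD1 and NOD2. It measured 15.3, 155, 19.9 and 96.7 CPM, so the LPS libraries were far above the unstimulated ones, and the wild-type LPS library was the highest. Ripk2 rose by 2.81 ± 0.30, 7.0-fold (adjusted p = 0.00117). Its sensors, named after their values were seen, rose as well: Nod1 by 3.28 ± 0.23 (adjusted p = 0.000285) and Nod2 by 3.15 ± 0.27 (adjusted p = 0.000526).

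The size of the LPS change was then compared between the genotypes, as the log2 LPS ratio within each. Beyond 2-fold higher, with the whole interval past that limit, were the same 4 of the 7 genes in wild type, where 14.8% of all genes tested were, and in deficient cells, where 12.5% were. With total counts as library sizes, 3 of the 7 were in each genotype. Casp8 then had ratios of 1.04 (0.98 to 1.10) in wild type and 0.77 (0.71 to 0.84) in deficient cells. Cflar had ratios of 3.58 (3.53 to 3.63) in wild type and 3.57 (3.52 to 3.62) in deficient cells, a difference of -0.01 (-0.08 to 0.06). Mlkl had ratios of 3.53 (3.45 to 3.61) and 3.54 (3.44 to 3.64), a difference of 0.01 (-0.12 to 0.14). Ripk1 had ratios of -0.63 (-0.71 to -0.56) and -0.68 (-0.75 to -0.61), a difference of -0.05 (-0.15 to 0.06). These 3 intervals of the difference include 0, and the genes' LPS ratios lay close together in the 2 genotypes.

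The other 4 genes had a lower LPS ratio in deficient cells than in wild type beyond counting error. Such differences were common: of all 12730 genes tested, 4202 had an interval of the difference wholly below 0 and 4009 one wholly above 0. For Ripk2 the ratio was 10.1-fold (9.34 to 10.9) in wild type and 4.85-fold (4.49 to 5.25) in deficient cells, a log2 difference of -1.06 (-1.22 to -0.90). The deficient unstimulated library started higher and the deficient LPS library ended lower. With the 1.70% share of wild-type LPS counts removed from the wild-type unstimulated library, the difference was -1.22 (-1.38 to -1.06), past 2-fold. The wild-type log2 ratio was then 3.51 (3.39 to 3.63), against 3.34 (3.22 to 3.45). Casp8 had an LPS ratio of 2.79-fold in wild type and 2.22-fold in deficient cells, a log2 difference of -0.33 (-0.42 to -0.24). Fadd differed by -0.26 (-0.48 to -0.03), and by -0.19 (-0.42 to 0.03) with total counts as library sizes. None of these differences has a test, since each of the 4 libraries stands alone.

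Ripk3 was the 1 gene of the 7 with LPS ratios of opposite sign and both intervals clear of 0, and 8.37% of all genes tested had such ratios. Its ratio was 0.20 (0.11 to 0.30) in wild type and -0.26 (-0.36 to -0.16) in deficient cells, and with total counts as library sizes the wild-type ratio turned to -0.24 (-0.33 to -0.14). The difference between its ratios was -0.46 (-0.60 to -0.32). For Mlkl and Cflar, removing the 1.70% share moved the difference to -0.18 (-0.32 to -0.05) and -0.21 (-0.29 to -0.14). It moved their wild-type LPS ratios to 3.73 (3.64 to 3.82) and 3.79 (3.74 to 3.85).

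**Figure D2:**
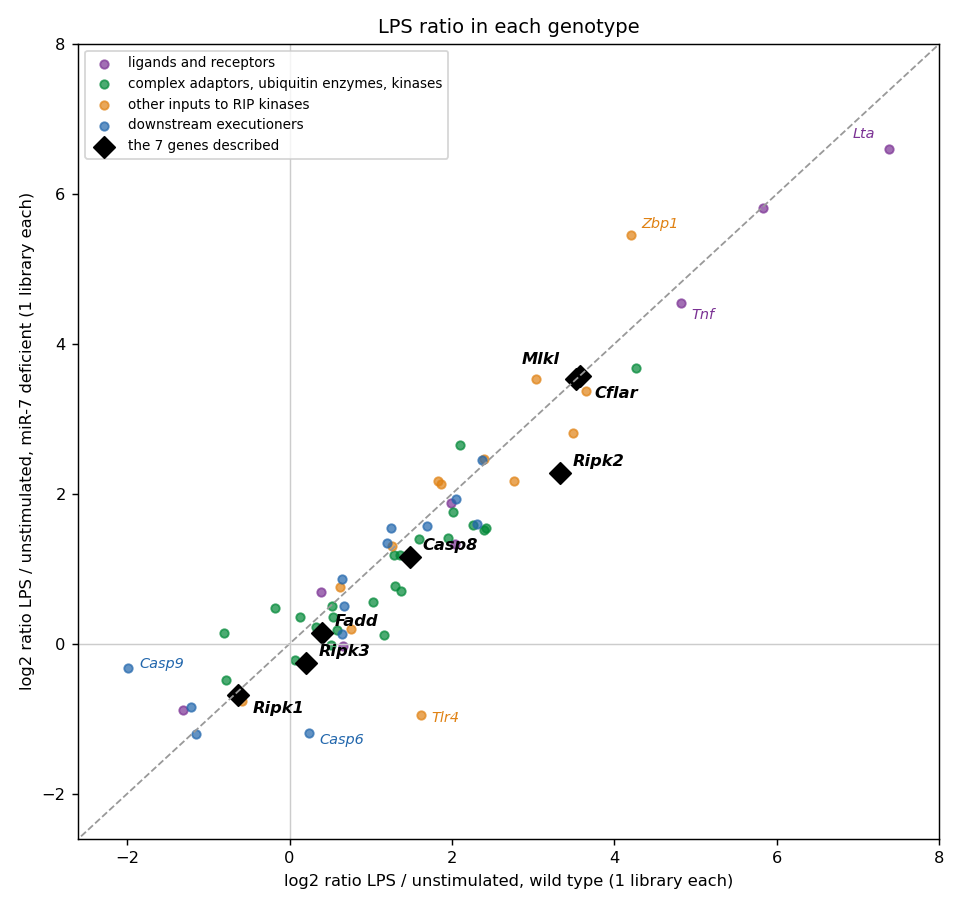
Log2 ratio of LPS to unstimulated TMM-scaled counts in the wild-type pair (horizontal axis) against that in the miR-7 deficient pair (vertical axis), with the 7 genes as black diamonds, the 58 listed genes tested as dots coloured by list, and a dashed line where both ratios are equal. Cflar (3.58 and 3.57), Mlkl and Ripk1 lie close to the line, and Ripk2 (3.34 in wild type, 2.28 in deficient cells), Casp8, Ripk3 and Fadd lie below it.

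The comparison of genotypes asked which of these genes differed in cells deficient in miR-7. In the additive model 0 of the 7 genes passed the test for genotype, where 0.385% of all genes tested were higher and 0.165% lower in deficient cells. Of the 7, edgeR gave 0 an unadjusted p below 0.05, and DESeq2's Wald test gave 1 such p and 0 calls. Over all 12730 genes tested, 968 had such a p in edgeR and 893 in DESeq2, which called 228. Mlkl had the largest fitted change, -0.41 ± 0.18 (unadjusted p = 0.0592, adjusted p = 0.692), and the other 6 lay between -0.19 and 0.13. Whole intervals beyond 2-fold were seen for 0 of the 7 genes without LPS, where 4.23% of all genes were, and for 0 of the 7 with LPS, where 5.62% were.

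Genotype ratios beyond counting error were common over all 12730 genes tested. Without LPS 3908 had an interval wholly below 0 and 4066 one wholly above, and with LPS 4022 and 4430 did. Mlkl was lower in deficient cells at both conditions beyond counting error, 1.34-fold without LPS (log2 -0.42, -0.55 to -0.29) and 1.33-fold with it (-0.41, -0.45 to -0.37). Removing the 1.70% share left the ratio without LPS at -0.23 (-0.36 to -0.10). Cflar was slightly higher in deficient cells at both conditions, by 0.14 (0.07 to 0.20) and 0.12 (0.10 to 0.14), and removing the 1.70% share moved the former to 0.34 (0.27 to 0.41). Cflar and Mlkl both carry the TCTTCCA sequence in their 3′ UTRs, and their ratios lay on opposite sides of 0.

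Ripk2 and Ripk3 lay above wild type without LPS and below it with LPS. Ripk2 had ratios of 0.38 (0.23 to 0.53) and -0.68 (-0.74 to -0.62), the latter 1.6-fold lower. Ripk3 had ratios of 0.18 (0.09 to 0.28) and -0.28 (-0.38 to -0.17). Casp8 was near wild type without LPS, -0.02 (-0.09 to 0.05), and lower with it, -0.35 (-0.40 to -0.30). None of these 3 genes has a miR-7 site in its longest 3′ UTR. Ripk1 and Fadd, which have one, had ratios of -0.04 (-0.10 to 0.02) and 0.17 (0.01 to 0.33) without LPS and of -0.08 (-0.17 to 0.00) and -0.09 (-0.25 to 0.08) with it. With DESeq2 size factors both Ripk1 ratios lay below 0 beyond counting error, -0.07 (-0.14 to -0.01) and -0.10 (-0.18 to -0.01).

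**Figure D3:**
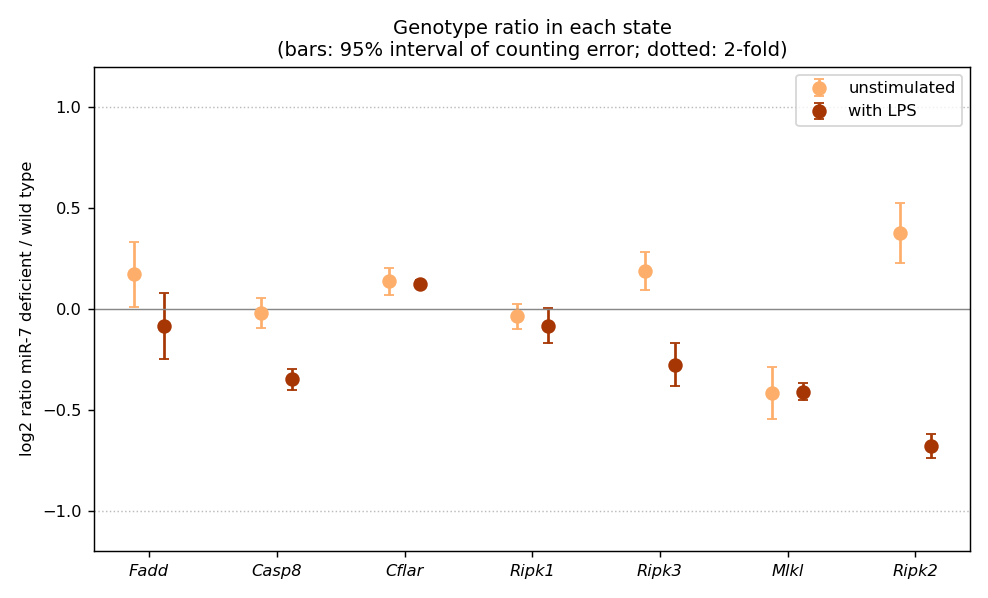
Log2 ratio of miR-7 deficient to wild-type TMM-scaled counts for each gene, without LPS and with LPS, with 95% counting intervals as bars and dotted lines at 2-fold. Mlkl is below 0 at both conditions (-0.42 and -0.41), Cflar is above 0 at both, and Ripk2 changes side (0.38 and -0.68).

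Levels between genes were compared per kilobase of merged exons, as TMM-scaled CPM per kilobase (RPKM), with no spread since each value is 1 library. Casp8 was the highest of the 7 without LPS, at 24.6 in wild type and 24.3 in deficient cells, followed by Ripk3 at 17.5 and 19.9 and Ripk1 at 12.2 and 11.9. Mlkl, at 12.1 and 9.09, came next, and in wild type it could hardly be told from Ripk1. Cflar measured 6.31 and 6.94 and Ripk2 5.45 and 7.08, and Fadd was the lowest at 3.48 and 3.92.

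With LPS, Mlkl was the highest of the 7, at 140 RPKM in wild type and 106 in deficient cells. Cflar followed at 75.6 and 82.3, Casp8 at 68.7 and 53.9 and Ripk2 at 55 and 34.3. Ripk3 (20.2 and 16.7), Ripk1 (7.88 and 7.44) and Fadd (4.6 and 4.33) filled the lower places, so the executioner Mlkl stood above its kinase Ripk3 with LPS and below it without. The place of Cflar depends on the length used: with its longest transcript in place of all merged exons it reached 159 in the deficient LPS library, above Mlkl at 121. Without LPS, that length put Cflar at 12.2 and 13.4, above Ripk2 (5.47 and 7.11) in both genotypes and, in deficient cells, above Mlkl (10.4).

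Listed death receptor and necroptosis genes around the 7 were described from 4 lists, 58 of whose 60 genes passed the filter. Fasl and Tnfrsf25, a ligand and a receptor, had 0 counts in every library. With LPS, 35 of the 58 rose, 4 fell and 19 did not pass, with a median log2 change of 1.25. Over all genes tested these shares were 18.0% raised and 16.3% lowered, with a median of -0.04, and the counts by list below stand against the same shares. The 4 that fell were Tnfrsf21, Slc15a4, Gsdme and Parp1, the last of them named after its values were seen. Rnf31, Tlr3, Slc15a3, Slc15a4, Casp9 and Parp1 share exonic bases with other genes, so their values below are uncertain.

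Of 8 death receptor ligands and receptors tested, 5 rose, 1 fell and 2 did not pass (median 1.81). Tnf, the main ligand of this pathway, measured 19.8, 557, 42.4 and 994 CPM and rose by 4.68 ± 0.23 (adjusted p = 0.000173). Lta, a related ligand, measured 0.171, 28.6, 0.178 and 17.3 CPM and rose by 7.0 ± 0.37. Tnfsf10, the ligand TRAIL, rose by 5.82 ± 0.24. Tnfrsf1b, a TNF receptor that is not the death receptor, rose by 1.93 ± 0.21. Tnfrsf1a, the TNF receptor that is a death receptor, named after its values were seen, did not pass (0.54 ± 0.19, adjusted p = 0.0728). Tnfrsf21, a death receptor, fell by 1.10 ± 0.20 (adjusted p = 0.00833). That call did not hold in a model of LPS alone without the wild-type unstimulated library, where the change was -0.96. Tnfrsf10b, the TRAIL receptor, measured 1.26, 1.99, 7.24 and 7.10 CPM and did not pass for LPS (0.30 ± 0.38).

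Of 24 adaptors, ubiquitin enzymes and kinases that act on the receptor complex, 13 rose, 0 fell and 11 did not pass (median 0.92). Tnfaip3, a ubiquitin-editing brake on NF-kB and cell death, measured 44.9, 863, 66.2 and 850 CPM and rose by 3.97 ± 0.25 (adjusted p = 0.000224). Rnf31, the catalytic unit of the linear ubiquitin ligase, rose by 2.37 ± 0.23, and Mapkapk2, a kinase that phosphorylates RIPK1, by 1.92 ± 0.24. Otulin, which removes linear ubiquitin, had a fitted change of -0.63 ± 0.21 (adjusted p = 0.0636, 0.0152 with total counts as library sizes and 0.04996 with a filter at a CPM of 10) and Tab1 one of -0.33 ± 0.30, and neither passed with TMM scaling and the filter at a CPM of 1.

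Of 13 genes that feed the RIP kinases by other routes, 10 rose, 1 fell and 2 did not pass (median 2.0). Zbp1, a nucleic acid sensor that binds RIPK3, measured 13.3, 244, 7.11 and 312 CPM and rose by 4.82 ± 0.36 (adjusted p = 0.00037). Tlr3, which reaches RIPK3 through its adaptor, rose by 3.51 ± 0.21. Slc15a3, an endolysosomal transporter of NOD ligands, rose by 2.0 ± 0.21, and its relative Slc15a4 fell by 0.67 ± 0.20 (adjusted p = 0.0432). The Slc15a4 call ended with DESeq2 size factors (adjusted p = 0.0549), no filter (0.0745), the 1.70% share removed (0.0505) or a model of LPS alone (0.114). It did not hold in that model with any 1 library left out either. The changes were then -0.947 without the wild-type LPS and -0.811 without the deficient unstimulated library. They were -0.415 without the deficient LPS and -0.415 without the wild-type unstimulated library. Tlr4, the receptor of LPS itself, measured 14.5, 44.5, 11.8 and 6.09 CPM, with the wild-type LPS library the highest and the deficient LPS library the lowest. Its fitted change was 0.36 ± 0.60 and that of Ifnar1, an interferon receptor, 0.48 ± 0.21, and neither passed. Without the deficient LPS library, a model of LPS alone gave Tlr4 a change of 1.76 (adjusted p = 0.0196), and without the wild-type LPS library it gave -1.11 (adjusted p = 0.0693).

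Of 13 executioners downstream, 7 rose, 2 fell and 4 did not pass (median 0.76). Ninj1, which ruptures the membrane of dying cells, rose by 1.95 ± 0.24. Gsdme, a gasdermin pore former, fell by 1.18 ± 0.23 (adjusted p = 0.0106) and Parp1, a DNA repair enzyme cut by caspases, by 1.03 ± 0.21 (adjusted p = 0.0113). In a model of LPS alone without the wild-type unstimulated library neither call held, with changes of -1.13 for Gsdme and -0.88 for Parp1. The Gsdme call also did not hold in that model without the deficient unstimulated library, where its change was -1.16. Casp9, the caspase of the mitochondrial route, measured 51.6, 13, 56.6 and 45.5 CPM and did not pass (-1.14 ± 0.41, adjusted p = 0.0758). It passed with total counts as library sizes (adjusted p = 0.0358), with DESeq2's Wald test (0.0269) and without the deficient LPS library, where its change was -2.06 (0.0137), against -0.25 without the wild-type LPS library.

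**Figure D4:**
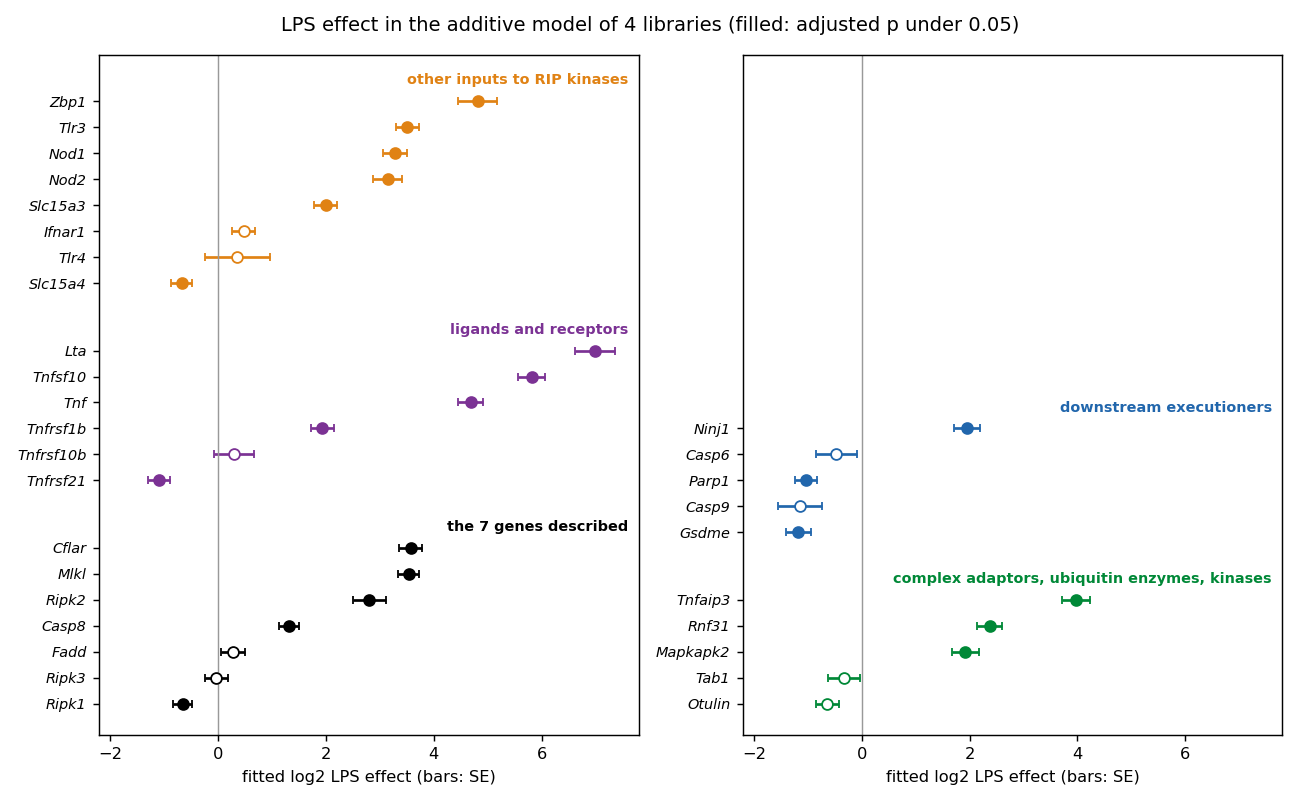
Fitted log2 LPS change of the 7 genes and of 24 listed genes, by list, with SE bars and filled points for an adjusted p below 0.05. Cflar and Mlkl (3.58 and 3.53) are passed by 5 of the listed genes drawn, Lta, Tnfsf10, Zbp1, Tnf and Tnfaip3.

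For genotype, 0 of the 58 listed genes passed edgeR's test, 5 had an unadjusted p below 0.05, and DESeq2's Wald test called 2, Tnf and Tnfrsf10b. Over all 12730 genes tested, edgeR called 70 and gave 968 such an unadjusted p, and DESeq2 called 228. In edgeR's fit, the change in deficient cells was 0.97 ± 0.20 (adjusted p = 0.192) for Tnf and 2.17 ± 0.39 (adjusted p = 0.132) for Tnfrsf10b.

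For each of the 7 genes, the gene of most similar pattern was sought among 7851 tested genes with a mean of at least 10 CPM, as the smallest root mean square (RMS) difference of centred log2 CPM over the 4 libraries. Cflar was most like Gvin1, an interferon-induced GTPase (RMS 0.0481). Mlkl was most like Parp11, an ADP-ribosyltransferase (0.0830), and Ripk2 most like Tgm2, a transglutaminase (0.0799). Casp8 lay nearest Ppp1r15b (0.0339), Ripk1 nearest the ribosomal protein gene Rpl4 (0.0125), Ripk3 nearest Ltn1 (0.0157) and Fadd nearest Cog2 (0.0125). Rpl4, Tgm2 and Ppp1r15b share exonic bases with other genes, so their counts are uncertain. These likenesses over 4 libraries are descriptions with no test.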

How the data were processed

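Polyadenylated RNA of 4 macrophage libraries was sequenced, 1 for each combination of genotype and LPS. Per the series design text, base calling used Casava and Cutadapt, alignment used TopHat with Bowtie2, and exon annotation came from Partek; the submitters' processing notes name HTSeq and mm8. The authors deposited raw counts per gene, without normalization. The sources used here do not give the strand setting, the treatment of multiply aligned reads or the annotation release. Gene IDs without version matched GENCODE M21 for 52403 of 52550 entries (99.7%); coordinates and symbols are those of M21 on GRCm38, whatever build the reads were aligned to. IDs of 6 of the 7 genes had the same version there, all but Ripk3.

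The members, gene lists and tests were chosen with earlier results of these data known. The 12730 genes that reached a CPM of 1 in 2 libraries were fitted in edgeR 4.0.16 (limma 3.58.1, R 4.3.3) with TMM factors of 1.15, 0.846, 1.16 and 0.890, by the quasi-likelihood test of an additive model of genotype and LPS. SE was the size of the log2 change divided by the square root of F. This model takes any interaction of genotype with LPS as spread, and p-values measure the spread between these libraries, which may be technical. Ratios of 2 libraries carry exact Clopper-Pearson 95% intervals, and the difference of 2 ratios a normal 95% interval after adding 0.5 counts to each library; intervals and the floor of 3 counts cover counting error only, since PCR copies are not independent molecules. The fit was run on simulated data that had less spread and fewer changed genes than these libraries and no genotype effect. That run does not show how well the calls hold here.

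Named genes were the 7, and from each list the 2 of highest mean CPM, the 2 highest and 2 lowest LPS changes and any gene called for genotype, plus the gene most like each of the 7, apart from a few results left out of the text. Alternatives were DESeq2 1.42.0 size factors and Wald test, total counts, no filter, a CPM of 10 and models with 1 factor. Others were thinned counts, no genes sharing exonic bases, removal of the 1.70% share and the longest transcript as length. Each library was also left out in turn, in models with 1 factor.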

Additional observations from a re-analysis of the deposited data

Results flagged for a closer look

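The LPS ratios of Ripk3 pointed in opposite directions in the genotypes, each beyond counting error. The log2 ratio was 0.20 in the wild-type pair and -0.26 in the miR-7 deficient pair. With 1 library a group, this difference was not tested, and with total counts as library sizes both ratios were below 0.

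The LPS receptor gene Tlr4 also had ratios of opposite sign, 1.61 in wild type and -0.95 in deficient cells. The apoptotic caspase gene Casp6, named after its values were seen, had ratios of 0.24 in wild type and -1.2 in deficient cells. Neither of these differences was tested.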

How the results depend on the processing

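No paired analysis was possible because each group holds 1 library. The calls for Cflar, Mlkl, Ripk2 and Casp8 held under all 13 alternatives, with adjusted p of at most 0.0490, and Fadd and Ripk3 passed under none. The count of the 7 genes lowered by LPS went from 1 to 0 with no filter, to 0 without genes sharing exonic bases (a fit that leaves Ripk1 out) and to 0 in each leave-one-out fit (range 0 to 0). Listed genes lowered by LPS went from 4 to 2 without genes sharing exonic bases (a fit that leaves Slc15a4 and Parp1 out) and ranged from 0 (without the wild-type unstimulated library) to 4 with 1 library left out, with 2 without the deficient unstimulated library; the cause of the changes with 1 library left out was not tested. Where 1 library was left out, the model held 1 factor, and a lone library in an arm is assumed to vary like the others. Listed genes higher in deficient cells went from 0 to 2 with DESeq2's Wald test. With the 1.70% share removed, 1 of the 7 genes, Ripk2, had LPS ratios that differed beyond 2-fold, against 0. With total counts the wild-type LPS ratio reversed for Ripk3 (-0.24) and Fadd (-0.0396). No gene of the 7 passed for genotype under any alternative, the lowest adjusted p being 0.582 for Mlkl. Models of genotype alone, also those with 1 library left out, do not account for LPS, so they cannot decide this for genes that respond to LPS. Over all alternatives the fitted genotype change ranged from -3.07 to 2.24 for Mlkl and from -2.56 to 2.82 for Cflar.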
